A study of Mus musculus with 2 samples.

Results

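Properdin and complement genes are described here in Cx3cr1-YFP cells sorted from mouse spinal cord. The genes are Cfp, C1qa, C1qb, C1qc, C3, C3ar1, C5ar1, Serping1 and C4b, 9 of the 27998 genes of the deposited matrices, and each was matched by its symbol. They were chosen with the difference between the libraries in microglia already known, so that difference is given as a description with no test.

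Single-cell 3′ libraries (10x Chromium, version 2 chemistry) were made from yellow fluorescent cells of Cx3cr1-CreERT2-YFP::flxRunx1 mice on the C57BL/6J background. Mice of the group labelled Runx1 knock-out received tamoxifen at 1 mg per day for 5 days, and mice of the group labelled wild type received vehicle. Spinal cords were taken 4 weeks after the first injection. For both libraries the digestion used collagenase at 2 mg per ml for 30 min at 37 °C. CreERT2 is a Cre recombinase that tamoxifen switches on, and here the Cx3cr1 locus drives it in microglia and other mononuclear phagocytes. Both groups carry the transgenic strain name in the labels, and the gate selected YFP in both. The age, the sex and the number of animals behind a library were not given. There was 1 library per group, so genotype, tamoxifen, animals and library preparation cannot be told apart. No difference below has a replicate check, and all intervals cover counting error only.

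Complement is a set of secreted proteins and receptors that tag cells and debris for uptake. C1q, built from the chains C1qa, C1qb and C1qc, starts the classical pathway, and C3 is the protein on which all pathways converge. Properdin, encoded by Cfp, is secreted by myeloid cells and stabilises the convertase of the alternative pathway that cleaves C3. C3ar1 and C5ar1 are the receptors for the C3a and C5a fragments, Serping1 encodes the C1 inhibitor, and C4b encodes complement C4. Microglia are the main source of C1q in the mouse central nervous system.

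The knock-out-labelled library held 2604 barcodes and 13075939 UMIs (median 3716 per barcode), and the wild-type-labelled library held 4582 barcodes and 37446978 UMIs (median 6376 per barcode). A UMI is 1 captured molecule, read at its 3′ end. The libraries had 9 barcode sequences in common. After filtering, 1353 of 2596 cells in the knock-out-labelled library and 2176 of 4582 cells in the wild-type-labelled library fell in microglia-like clusters. They came from different clusters: cluster 2 held 1351 of the 1353 cells, and cluster 0 held all 2176. All 13 microglia markers were detected in both, with a summed level of 28700.2 CPM in the knock-out-labelled library and 26299 CPM in the wild-type-labelled library. CPM is a gene's UMI count scaled by the total UMIs of the same cells, over all genes. Complement genes, Runx1 and sex-linked genes took no part in clustering or naming. Runx1, the labelled target, stood at 181 CPM in microglia-like cells of the knock-out-labelled library and 93.1 CPM in those of the wild-type-labelled library. The sources used here do not name the deleted Runx1 exon, and 3′ counts outside it would not check the deletion.

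The Cfp gene lies on the minus strand at chrX:20925454-20931555 (GRCm38, GENCODE M21) and has 9 exons. C1qb, C1qc and C1qa are adjacent on the minus strand of chromosome 4, at chr4:136880129-136886187, chr4:136889804-136893065 and chr4:136895917-136898803, with 3 exons each. The 250 bases before the RefSeq start (GRCm38.p6) are shown for Cfp, the gene that differed most between the libraries, for a pair of C1q chains whose levels differed little, and for C5ar1. Promoters of 6 of the 9 genes were matched in the RefSeq table. The windows are chrX:20931556-20931805 for Cfp, chr4:136886201-136886450 for C1qb, chr4:136892915-136893164 for C1qc and chr7:16259339-16259588 for C5ar1, all read 5′ to 3′ on the minus strand. Capitals mark matches on either strand to TGTGGT, a Runx core, and to GAGGAA, a PU.1 core. The RefSeq starts of C1qb, C1qc and C5ar1 differ from the starts of the GENCODE gene models.
Cfp: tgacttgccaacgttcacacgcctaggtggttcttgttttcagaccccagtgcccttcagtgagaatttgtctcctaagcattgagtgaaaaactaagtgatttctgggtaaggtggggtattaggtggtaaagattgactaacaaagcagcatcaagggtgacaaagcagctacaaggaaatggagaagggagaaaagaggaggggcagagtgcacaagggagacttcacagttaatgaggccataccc
C1qb: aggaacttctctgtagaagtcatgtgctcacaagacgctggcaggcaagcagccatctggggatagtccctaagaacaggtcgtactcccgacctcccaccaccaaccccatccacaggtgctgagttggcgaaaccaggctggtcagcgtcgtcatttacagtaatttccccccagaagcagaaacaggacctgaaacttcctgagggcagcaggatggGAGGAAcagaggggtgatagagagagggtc
C1qc: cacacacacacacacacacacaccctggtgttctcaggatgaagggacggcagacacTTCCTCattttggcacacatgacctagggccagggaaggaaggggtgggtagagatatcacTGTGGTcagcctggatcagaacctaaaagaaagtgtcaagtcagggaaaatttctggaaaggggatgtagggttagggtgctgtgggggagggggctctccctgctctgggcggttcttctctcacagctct
C5ar1: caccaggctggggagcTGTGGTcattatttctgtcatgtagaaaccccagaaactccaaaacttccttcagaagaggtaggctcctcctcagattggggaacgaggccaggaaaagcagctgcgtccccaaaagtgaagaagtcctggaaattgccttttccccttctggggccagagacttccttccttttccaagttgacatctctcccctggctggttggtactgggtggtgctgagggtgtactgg
Neither motif was in the Cfp window, nor was TTGCNNAA, a C/EBP motif. C1qb held 1 GAGGAA, C1qc held 1 TGTGGT and 1 GAGGAA on the reverse strand, and C5ar1 held 1 TGTGGT. The matched windows not shown, those of C3 and C3ar1, held neither TGTGGT nor GAGGAA. C3 held 1 TTGCNNAA and C3ar1 held none. Of 32851 promoter windows of this length, 14.0% held TGTGGT, 23.3% held GAGGAA and 9.56% held TTGCNNAA. A match is a string of letters, not a bound site.

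Cfp stood far apart between the libraries in microglia-like cells. It had 1386 UMIs, 226 CPM (214 to 238), in the knock-out-labelled library, against 26 UMIs, 1.67 CPM (1.09 to 2.45), in the wild-type-labelled library. The log2 ratio was 7.08 (6.52 to 7.70), or 135 times the level (92.0 to 208). It ranked 1 among the 5750 genes with at least 20 CPM in microglia-like cells of 1 library. The lower level was no higher than in endothelial-like cells of the same library, 1.77 CPM (1.10 to 2.71), so the ratio sets a measured level against one not told apart from background.

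Counted by cells, 745 of 1353 microglia-like cells of the knock-out-labelled library carried a Cfp UMI, or 55.1% (52.4 to 57.7). In the wild-type-labelled library 26 of 2176 did, or 1.19% (0.782 to 1.75). At least 2 UMIs were found in 334 cells (24.7%) of the knock-out-labelled library and in 0 of 2176 cells of the wild-type-labelled library, which allows a share of up to 0.138%. The largest count in 1 cell was 12 in the knock-out-labelled library and 1 in the wild-type-labelled library. With each cell thinned to 1500 UMIs, which left out no cell, the shares were 27.0% (24.6 to 29.4) in the knock-out-labelled library and 0.322% (0.129 to 0.662) in the wild-type-labelled library. The smaller share was that of the more deeply sequenced cells.

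**Figure D1:**
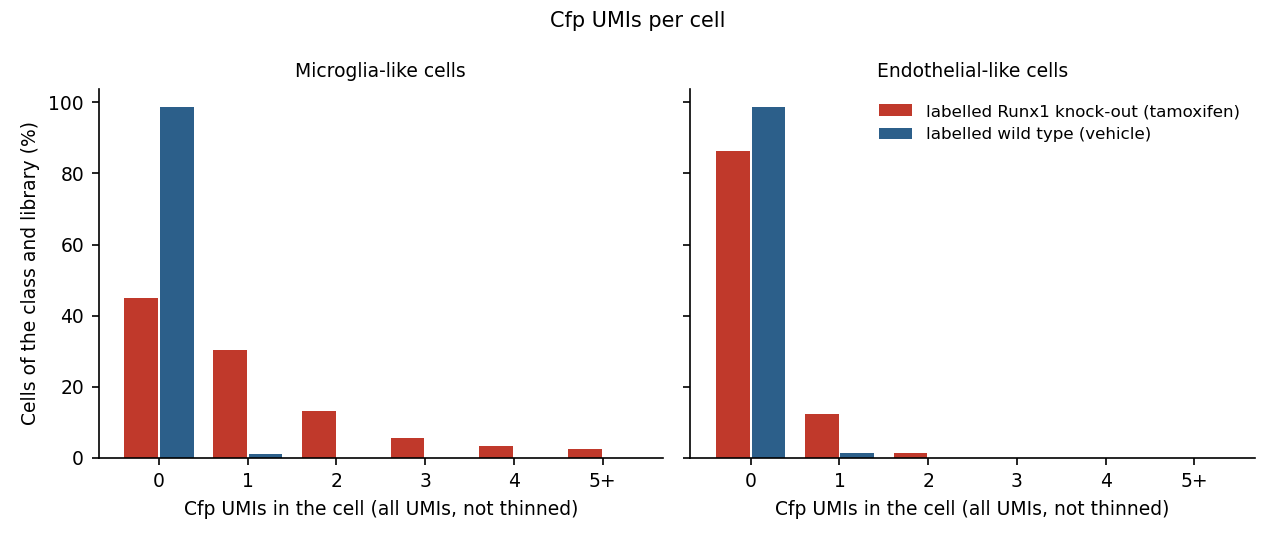
Share of cells (%, vertical axis) with 0, 1, 2, 3, 4 or at least 5 Cfp UMIs (horizontal axis, not thinned) in microglia-like and endothelial-like cells, red for the knock-out-labelled library and blue for the wild-type-labelled library. In the microglia-like panel 44.9% of cells of the knock-out-labelled library had no Cfp UMI, against 98.8% of cells of the wild-type-labelled library, and no blue bar stands at 2 or more UMIs.

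Detection of Cfp in the knock-out-labelled library moved with the depth of the cell, while its level did so little. In microglia-like cells ranked by depth into 3 equal sets, with medians of 2292, 3466 and 6630 UMIs, 38.4%, 53.9% and 73.0% of cells carried Cfp. The level in the same sets was 237, 239 and 216 CPM. At 1500 UMIs per cell the variance of the Cfp count was 1.07 times its mean, where plain counting noise gives 1. A cell without a Cfp UMI at this depth is therefore no evidence of a cell without Cfp RNA.

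Most other cell classes of the knock-out-labelled library also held Cfp UMIs; its 8 oligodendrocyte-like cells had 0. Endothelial-like cells, which should lack the gene, had 127 Cfp UMIs, 31.6 CPM (26.3 to 37.5), in the knock-out-labelled library, and 21 UMIs, 1.77 CPM, in the wild-type-labelled library. After thinning, 5.73% of 838 endothelial-like cells in the knock-out-labelled library and 0.431% of 1626 in the wild-type-labelled library had a Cfp UMI, at median depths before thinning of 3583 and 5929 UMIs. In droplet data free RNA can give such UMIs, and its part here was not tested. The endothelial-like level was 14.0% (11.6 to 16.8) of the microglia-like level for Cfp in the knock-out-labelled library, beside 15.9% for C1qa, 14.9% for C1qb, 14.9% for C1qc and 11.8% for the summed microglia markers. In the wild-type-labelled library the same share was 106% (56.9 to 196) for Cfp, 46.3% for C1qa, 43.3% for C1qb, 36.1% for C1qc and 30.8% for the summed markers. The share of microglia-like cells with a Cfp UMI in the wild-type-labelled library, 0.322%, was thus no higher than the 0.431% of its endothelial-like cells.

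Ordered by Cfp level, with the single neutrophil-like cell left out, the knock-out-labelled library had 298 CPM (129 to 587) in 4 border-associated macrophage-like cells, 232 CPM (150 to 342) in 17 cells of unnamed cluster 8 and 226 CPM in microglia-like cells, with intervals that overlap. Cluster 8 was led by cell division and NK cell genes and also held microglia markers. Unnamed cluster 4, with microglial and endothelial markers together, followed at 100 CPM (82.3 to 121). Pericyte or smooth muscle-like cells had 42.0 CPM (29.7 to 57.7), erythrocyte-like cells 34.0 CPM (20.2 to 53.8), endothelial-like cells 31.6 CPM and ependymal-like cells 21.1 CPM (5.75 to 54.0), again with overlapping intervals. In the wild-type-labelled library the border-associated macrophage-like cells were highest, with 7 UMIs in 4 of 19 cells, 32.9 CPM (13.2 to 67.8). The interval of that class lay above that of the microglia-like cells. This cluster was led by class II antigen presentation genes and its leading genes also included Cd79a, a B cell gene. Neutrophil-like cells, 1 in the knock-out-labelled library and 6 in the wild-type-labelled library, had 1 Cfp UMI in each library.

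Neutrophil, border-associated macrophage and monocyte markers each summed to less in the microglia-like cells of the knock-out-labelled library. The 9 neutrophil markers summed to 64 UMIs (10.4 CPM) in the knock-out-labelled library and 2516 UMIs (161 CPM) in the wild-type-labelled library. The 9 border-associated macrophage markers summed to 125 CPM in the knock-out-labelled library and 139 CPM in the wild-type-labelled library, with none at 0. The 8 monocyte markers summed to 45.8 CPM in the knock-out-labelled library and 86.6 CPM in the wild-type-labelled library. In endothelial-like cells the neutrophil markers summed to 8.45 CPM in the knock-out-labelled library and 150 CPM in the wild-type-labelled library. That difference was thus not particular to microglia-like cells. The border-associated macrophage markers summed to 149 and 145 CPM there, and the monocyte markers to 438 and 332 CPM, in the same order of libraries. The monocyte sum was thus higher in endothelial-like than in microglia-like cells of each library. In endothelial-like cells of the knock-out-labelled library 5 of the 8 monocyte markers had no UMI, so that sum rests on the remaining ones.

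Within the knock-out-labelled library, 365 thinned microglia-like cells with a Cfp UMI were set beside 988 without one. C3ar1 was found in 24.9% of cells with Cfp (20.6 to 29.7) and 22.5% of cells without it (19.9 to 25.2). C5ar1 was found in 15.6% of cells with Cfp and 14.8% of cells without it. Runx1 was found in 24.9% of cells with Cfp (20.6 to 29.7) and 23.0% of cells without it (20.4 to 25.7). The intervals overlapped for all 16 genes compared, among them Cebpb, a C/EBP transcription factor, at 71.8% of cells with Cfp and 67.5% of cells without it.

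Those genes next to Cfp that had UMIs in both libraries showed no difference of that size. Elk1, a transcription factor gene 1840 bases from Cfp, had 30 UMIs, 4.89 CPM, in microglia-like cells of the knock-out-labelled library and 42 UMIs, 2.70 CPM, in those of the wild-type-labelled library. Its log2 ratio was 0.86 (0.13 to 1.57). Araf, a RAF kinase gene, had 29.3 CPM in the knock-out-labelled library and 27.1 CPM in the wild-type-labelled library, a log2 ratio of 0.11 (-0.15 to 0.37). Uxt had a log2 ratio of -0.19 (-0.53 to 0.14) and Zfp182 one of -0.28 (-1.05 to 0.43). Timp1, an inhibitor of metalloproteinases, had 0 UMIs in the knock-out-labelled library and 14 in the wild-type-labelled library. Syn1, a neuronal synapse gene, had 0 UMIs in the knock-out-labelled library and 3 in the wild-type-labelled library. These counts do not limit how much lower Timp1 or Syn1 was in the knock-out-labelled library.

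The C1q chains were abundant in microglia-like cells of both libraries and differed little. C1qa stood at 7361 CPM (7293 to 7429) in the knock-out-labelled library and 7418 CPM (7375 to 7461) in the wild-type-labelled library, a log2 ratio of -0.01 (-0.03 to 0.00). C1qb stood at 6553 CPM (6490 to 6618) in the knock-out-labelled library and 6742 CPM (6701 to 6783) in the wild-type-labelled library, a log2 ratio of -0.04 (-0.06 to -0.02). C1qc stood at 6206 CPM (6143 to 6268) in the knock-out-labelled library and 5541 CPM (5504 to 5578) in the wild-type-labelled library, a log2 ratio of 0.16 (0.15 to 0.18). After thinning, all chains were found in 1350 of 1353 cells (99.8%) of the knock-out-labelled library and in 2175 of 2176 cells of the wild-type-labelled library. The directions depend on the setting: median-of-ratios scaling gave 0.03 for C1qa, and all filtered cells together gave -0.05 for C1qc. With the endothelial-like level of each library subtracted the log2 ratios of C1qa, C1qb and C1qc were 0.64, 0.55 and 0.58.

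C1q RNA in endothelial-like cells was lower in the knock-out-labelled library. In endothelial-like cells C1qa had 1173 CPM in the knock-out-labelled library and 3436 CPM in the wild-type-labelled library, and the log2 ratios of C1qa, C1qb and C1qc were -1.55, -1.58 and -1.11. Nearly every endothelial-like cell of the wild-type-labelled library had a C1qa UMI after thinning (99.6%), against 83.3% in the knock-out-labelled library. In the wild-type-labelled library the share of cells with a C1qa UMI therefore does not separate these classes, while the level does. In the knock-out-labelled library, where every thinned microglia-like cell had a C1qa UMI, the shares differed as well. Microglia marker RNA moved with the C1q level, at 3399 CPM in endothelial-like cells of the knock-out-labelled library and 8099 CPM in those of the wild-type-labelled library. Its part in the result was not tested.

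**Figure D2:**
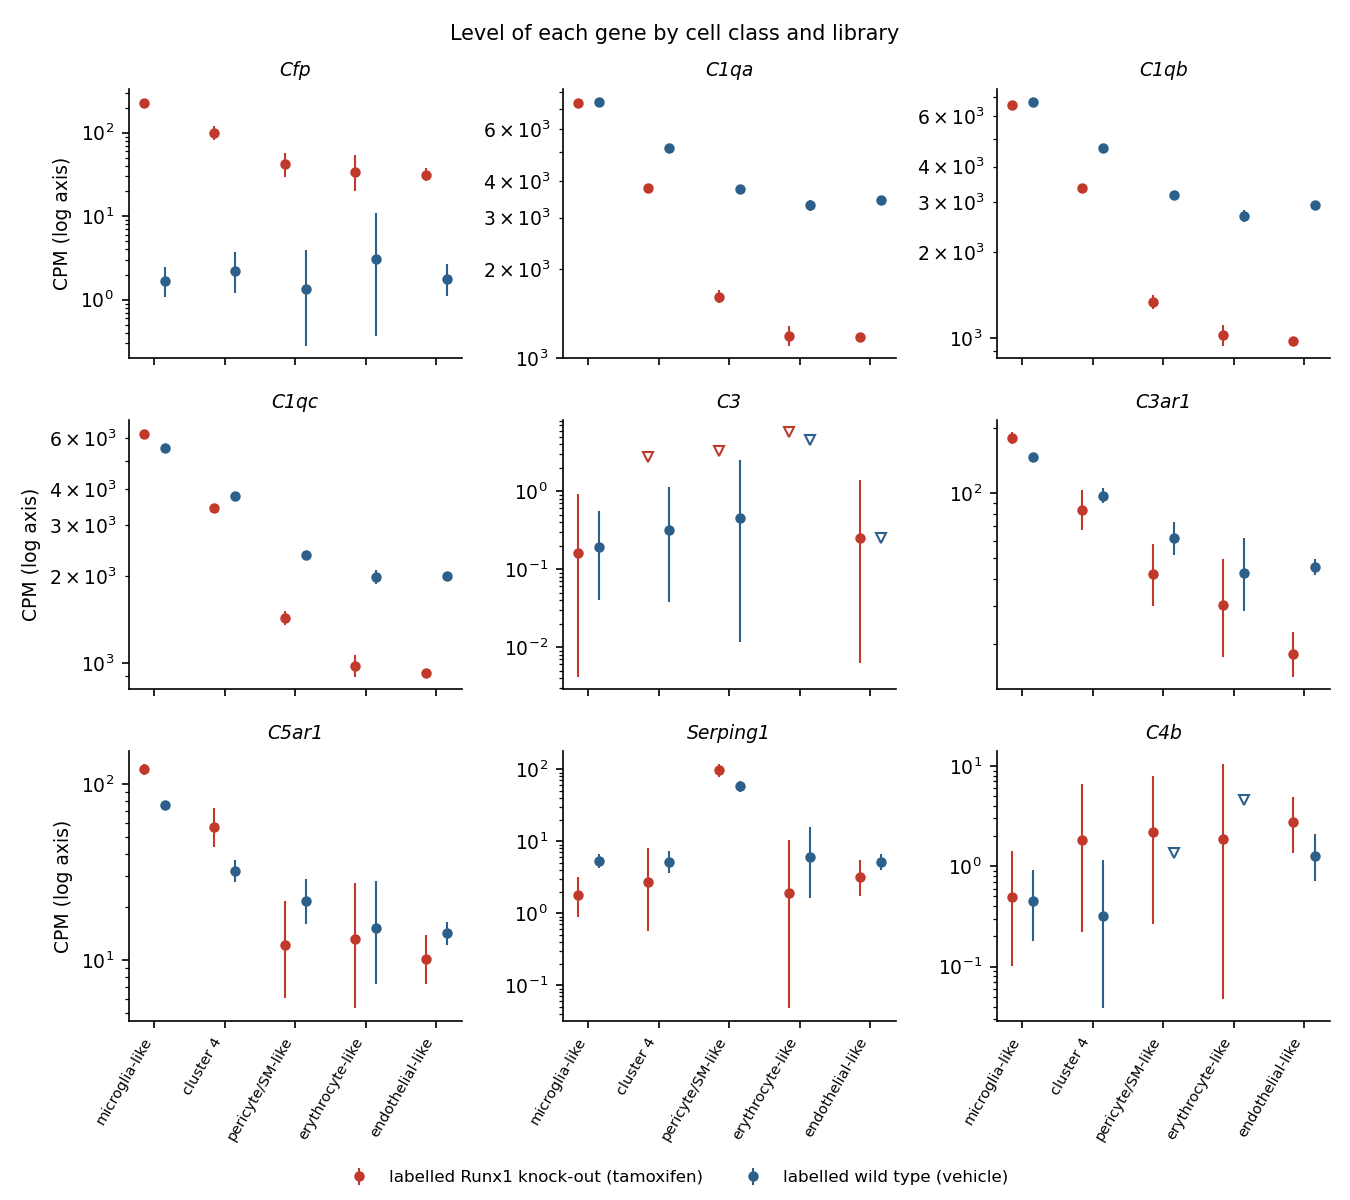
Level (CPM, log axis) of each of the 9 genes in the 5 classes with at least 50 cells in both libraries, red for the knock-out-labelled library and blue for the wild-type-labelled library, with exact 95% counting intervals; open triangles mark the limit that a count of 0 allows. Cfp is higher in the red points of every class shown, C1qa, C1qb and C1qc lie close together in microglia-like cells and lower in red elsewhere, and Serping1 is highest in pericyte or smooth muscle-like cells.

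The mix of the chains differed slightly between the libraries. In microglia-like cells of the knock-out-labelled library C1qa, C1qb and C1qc made up 36.6%, 32.6% and 30.8% of the C1q UMIs, against 37.7%, 34.2% and 28.1% in the wild-type-labelled library. Over the 5 largest classes C1qc made up 30.1% to 32.6% in the knock-out-labelled library and 23.9% to 28.1% in the wild-type-labelled library, so the ranges did not overlap. C1qb made up 30.5% to 32.6% in the knock-out-labelled library and 33.7% to 35.0% in the wild-type-labelled library, also without overlap. C1qa made up 35.7% to 38.2% in the knock-out-labelled library and 37.7% to 41.5% in the wild-type-labelled library. The classes of a library come from 1 preparation, so they are not independent. After the endothelial-like level was subtracted, an alternative added after the values were seen, C1qc made up 31.0% in the knock-out-labelled library and 31.2% in the wild-type-labelled library. C1qa then changed order, at 36.3% in the knock-out-labelled library and 35.1% in the wild-type-labelled library. C1qb stayed lower in the knock-out-labelled library, at 32.7% against 33.7%.

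**Figure D3:**
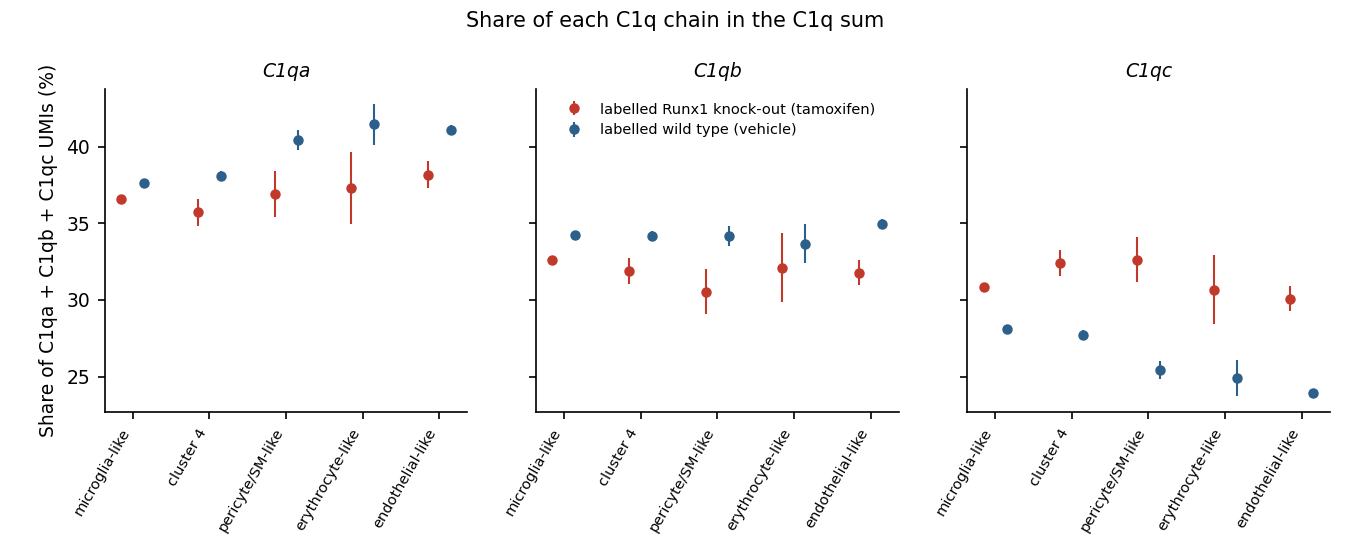
Share of each chain (%, vertical axis) in the sum of C1qa, C1qb and C1qc UMIs by cell class, red for the knock-out-labelled library and blue for the wild-type-labelled library, with exact 95% counting intervals. The C1qc share is higher in red than in blue in each of the 5 classes, by least in microglia-like cells (30.8% in red and 28.1% in blue).

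Both anaphylatoxin receptors were somewhat higher in the microglia-like cells of the knock-out-labelled library. C5ar1, the C5a receptor, had 746 UMIs, 122 CPM (113 to 131), in the knock-out-labelled library and 1180 UMIs, 75.7 CPM (71.5 to 80.2), in the wild-type-labelled library, a log2 ratio of 0.68 (0.55 to 0.82). After thinning, 203 of 1353 cells of the knock-out-labelled library (13.1% to 17.0%) and 240 of 2176 cells of the wild-type-labelled library (9.74% to 12.4%) had a C5ar1 UMI, beside 1.19% and 1.66% of the endothelial-like cells of the same libraries. C3ar1, the C3a receptor, had 1103 UMIs, 180 CPM (169 to 191), in the knock-out-labelled library and 2276 UMIs, 146 CPM (140 to 152), in the wild-type-labelled library, a log2 ratio of 0.30 (0.19 to 0.40). Thinned cells with a C3ar1 UMI made up 23.1% (20.9 to 25.5) in the knock-out-labelled library and 19.2% (17.5 to 20.9) in the wild-type-labelled library, beside 3.46% and 6.58% of their endothelial-like cells. Where each library was clustered on its own and only the 632 cells of the knock-out-labelled library that met the naming rule were kept, the C3ar1 ratio was 0.01. With the endothelial-like level subtracted the C3ar1 ratio was 0.69. The C5ar1 ratio was 0.44 with each library clustered on its own, 0.50 with cells thinned to 1500 UMIs and 0.86 with that subtraction.

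C3, C4b and Serping1 were at or near background in microglia-like cells. C3 had 1 UMI in microglia-like cells of the knock-out-labelled library and 3 in those of the wild-type-labelled library, and in all filtered cells 2 and 8 UMIs. Of the 8 in the wild-type-labelled library, 2 lay in the 6 neutrophil-like cells. C4b had 3 UMIs in microglia-like cells of the knock-out-labelled library and 7 in those of the wild-type-labelled library, and in all filtered cells 19 and 26. C4a, a near-identical copy, was not analysed here, and the split of reads between the copies makes the C4b counts uncertain. Serping1 had 11 UMIs, 1.79 CPM (0.895 to 3.21), in microglia-like cells of the knock-out-labelled library and 84 UMIs, 5.39 CPM (4.30 to 6.67), in those of the wild-type-labelled library, a log2 ratio of -1.59 (-2.65 to -0.68). The endothelial-like cells of the same libraries had 3.23 and 5.24 CPM of Serping1. At these counts C3 and C4b differences were not detectable.

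Among the cell classes Serping1 was highest in the pericyte or smooth muscle-like class, and within it in the few cells rich in fibroblast markers. Pericyte or smooth muscle-like cells had 88 Serping1 UMIs, 97.3 CPM (78.1 to 120), in the knock-out-labelled library and 129 UMIs, 58.5 CPM (48.9 to 69.6), in the wild-type-labelled library, a log2 ratio of 0.73 (0.33 to 1.14). This was under 2-fold, a size passed by 5.14% of the 6699 genes at 20 CPM in this class, 2.57% higher and 2.57% lower. Fibroblast and meningeal markers moved with it, at 713 CPM in the knock-out-labelled library and 344 CPM in the wild-type-labelled library. In 6 cells of the knock-out-labelled library and 1 cell of the wild-type-labelled library with at least 10 fibroblast marker UMIs, a limit chosen after the values were seen, 27 and 5 of these Serping1 UMIs were found. Their level was 646 CPM (426 to 939) in the knock-out-labelled library and 1043 CPM (339 to 2434) in the wild-type-labelled library. The other cells of the class had 70.7 CPM (54.1 to 90.9) in the knock-out-labelled library and 56.4 CPM (46.9 to 67.2) in the wild-type-labelled library, with intervals that overlap.

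Of the 9 genes, 6 reached 20 CPM in microglia-like cells of 1 library, 4 with a log2 ratio above 0 and 2 below, with a median of 0.23. Of these 6 only Cfp was past 2-fold, beside 7.17% of all 5750 genes in either direction and 1.81% higher. Those 5750 genes had a median log2 ratio of -0.04, and 46.6% lay above 0. Since the genes were chosen with this contrast known, nothing is read from the count. In endothelial-like cells 5 of the 9 reached 20 CPM. Cfp was past 2-fold higher there and C1qa, C1qb, C1qc and C3ar1 past 2-fold lower, beside 3.51% of 6296 genes in either direction, 0.699% higher and 2.81% lower.

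Other complement genes were counted over 50 listed genes, of which 49 are in the matrices and 11 reached 20 CPM in microglia-like cells. Of these 11, 6 lay above 0 and 5 below, with a median of 0.25, and 2 were past 2-fold higher and 3 past 2-fold lower, beside 1.81% and 5.36% of all genes. Both subunits of the complement receptor Mac-1, which binds cleaved C3, had a higher level in the knock-out-labelled library. Itgam had 381 CPM in the knock-out-labelled library and 186 CPM in the wild-type-labelled library, a log2 ratio of 1.04 (0.96 to 1.12), by the first of the identifiers that share this symbol. Itgb2 had 225 CPM in the knock-out-labelled library and 116 CPM in the wild-type-labelled library, a log2 ratio of 0.96 (0.86 to 1.06). Lrp1, a large uptake receptor, had 184 CPM in the knock-out-labelled library and 87.2 CPM in the wild-type-labelled library, a log2 ratio of 1.08 (0.96 to 1.19). C5ar2, a further C5a receptor, had 27.5 CPM in the knock-out-labelled library and 14.2 CPM in the wild-type-labelled library, a log2 ratio of 0.95 (0.65 to 1.25).

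Other regulators and receptors lay on both sides of 0. Cd47, an uptake inhibitor, had a log2 ratio of 0.25, C1qbp one of -0.26 and Cr1l, a convertase regulator, one of -0.27. Cd59a, an inhibitor of the membrane attack complex, Cd93 and Vtn were lower in the knock-out-labelled library, at log2 ratios of -1.48, -1.47 and -1.13. Cd59a and Cd93 were genes of the endothelial-like cells, where Cd59a had 147 CPM in the knock-out-labelled library and 133 CPM in the wild-type-labelled library, and Cd93 had 242 CPM in the knock-out-labelled library and 211 CPM in the wild-type-labelled library. Vtn was highest in pericyte or smooth muscle-like cells, at 1191 CPM in the knock-out-labelled library and 725 CPM in the wild-type-labelled library. Endothelial marker RNA in microglia-like cells moved with Cd59a and Cd93, at 2321 CPM in the knock-out-labelled library and 6788 CPM in the wild-type-labelled library. Pericyte or smooth muscle marker RNA in microglia-like cells moved with Vtn, at 133 CPM in the knock-out-labelled library and 289 CPM in the wild-type-labelled library. The part of such RNA in these ratios was not tested.

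**Figure D4:**
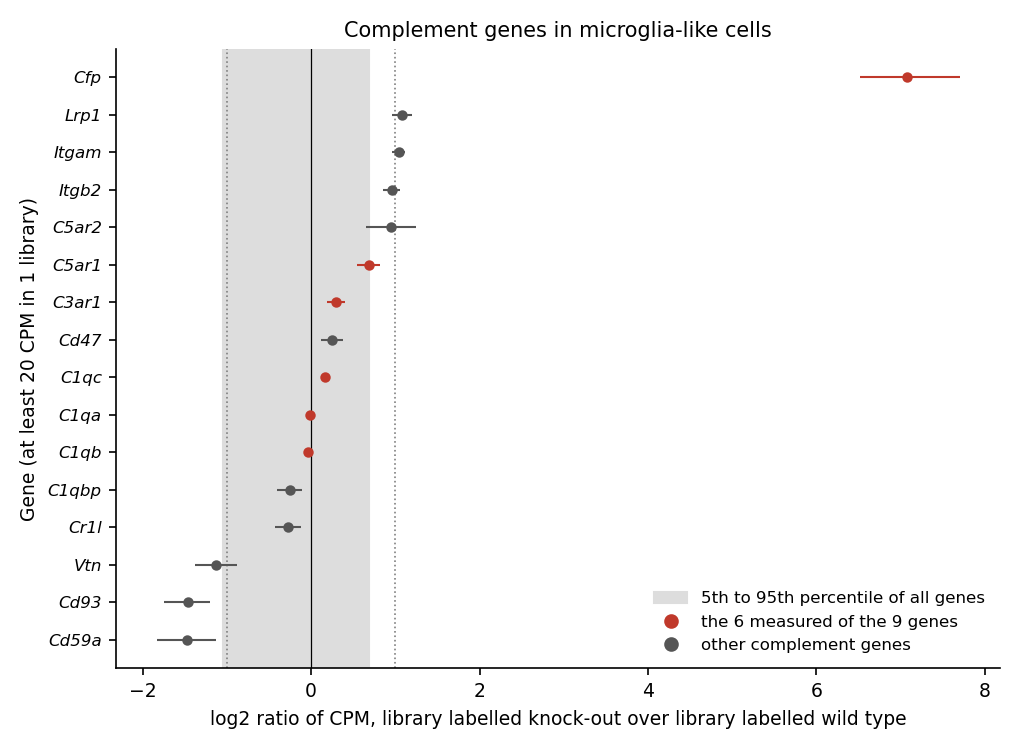
Log2 ratio of CPM (horizontal axis, knock-out-labelled library over wild-type-labelled library) in microglia-like cells for 16 complement genes with at least 20 CPM in 1 library, with exact 95% counting intervals; dotted lines mark 2-fold and the grey band the 5th to 95th percentile of all 5750 genes. Cfp, at 7.08, lies far to the right of the other 15 genes shown, which lie between -1.48 and 1.08.

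By pathway arm, none of the 9 lectin pathway genes and none of the 7 terminal pathway genes reached 20 CPM in microglia-like cells. Of the 9 classical pathway genes in the matrices 3 did, all of them C1q chains, and of 4 alternative pathway genes only Cfp did. Of 11 receptor genes 8 did, 6 above 0 and 2 below. Ependymal-like cells, which line the central canal, carried further complement genes. Clu, encoding the chaperone clusterin, had 1646 CPM in 26 cells of the knock-out-labelled library and 965 CPM in 17 cells of the wild-type-labelled library. Hc, which encodes C5, had 73.8 CPM in the knock-out-labelled library and 38.8 CPM in the wild-type-labelled library in the same cells. Cd55 had 68.6 and 56.0 CPM there, and Cd59b had 100 and 116 CPM, in the same order of libraries. These cells held 189587 and 232181 UMIs over all genes. The levels of Hc, Cd55 and Cd59b thus rest on few UMIs, and no difference between the libraries is read from them.

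Microglia-like cells of each library fell into a pair of main clusters when the library was clustered on its own, 1 richer in the cytokine gene Il1b and 1 richer in P2ry12, a receptor of resting microglia. Those genes took part in the clustering, while the complement genes did not. Both libraries were made after digestion at 37 °C, and its part in this split was not tested. The Il1b-richer cluster of the knock-out-labelled library, led by S100a8, Il1a and Tnf, stayed unnamed on its own. Its top 10 genes held no microglia marker but the neutrophil genes S100a8 and S100a9. That list was made on all 724 cells of the cluster. Only the 718 that were microglia-like when both libraries were clustered together are taken here, and the list was not made again for them. In all 1353 microglia-like cells of this library the 9 neutrophil markers summed to 64 UMIs. In the knock-out-labelled library the Il1b-richer cluster (718 cells, median 3912 UMIs) had 193 CPM of Cfp and the other (628 cells, median 3086 UMIs) had 276 CPM, a log2 ratio of -0.52 (-0.67 to -0.36). Cfp was found in 24.1% of the thinned Il1b-richer cells and 30.3% of the others, with intervals that overlap slightly. In the wild-type-labelled library the 2 clusters, of 928 and 1240 cells, had 10 and 14 Cfp UMIs, and the interval of their ratio (-2.02 to 0.59) spanned 0.

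The C1q chains were lower and C3ar1 was higher in the Il1b-richer cluster of each library. In the knock-out-labelled library C1qa, C1qb and C1qc had log2 ratios of -0.38, -0.33 and -0.26 for the Il1b-richer over the Il1b-poorer cluster, and in the wild-type-labelled library of -0.16, -0.11 and -0.12. C3ar1 had 201 CPM in the Il1b-richer cluster and 148 CPM in the Il1b-poorer cluster of the knock-out-labelled library, a log2 ratio of 0.44 (0.26 to 0.63). In the wild-type-labelled library C3ar1 had 158 CPM in the Il1b-richer cluster and 133 CPM in the Il1b-poorer cluster, a log2 ratio of 0.24 (0.12 to 0.36). For C5ar1 the log2 ratios were 0.38 (0.16 to 0.61) in the knock-out-labelled library and 0.10 (-0.06 to 0.27) in the wild-type-labelled library. Cells of a cluster share 1 library, so these are values of these libraries with no test.

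**Figure D5:**
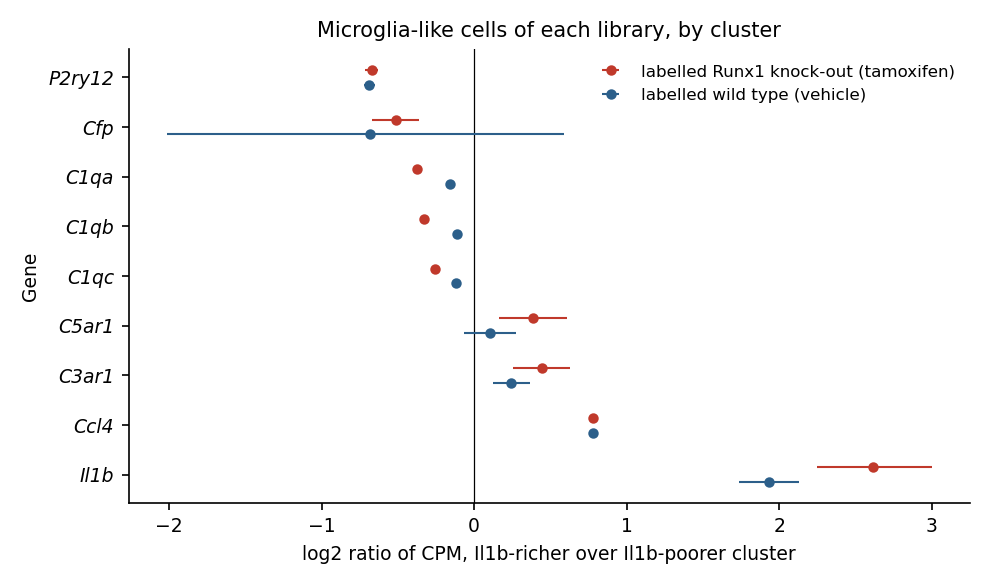
Log2 ratio of CPM (horizontal axis) for the Il1b-richer over the Il1b-poorer cluster of microglia-like cells within each library, red for the knock-out-labelled library and blue for the wild-type-labelled library, with exact 95% counting intervals. P2ry12, Ccl4 and Il1b show the clustering itself, the C1q chains lie below 0 and C3ar1 above 0 in both libraries, and the blue Cfp interval spans 0.

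Likeness to each gene was measured as Pearson's r of log2(CPM + 5) over 10 sums, 5 classes in 2 libraries, which share library and depth. For Cfp the most alike genes were Gm42418 (0.98), AB124611 (0.96) and Cd300lf (0.95). C1qa was most like Cd52, Cotl1 and Fcer1g, C1qb most like Fcer1g, Tmem119 and Cotl1, and C1qc most like Fcgr3, Rgs10 and Fcrls, all at an r of 1.00 after rounding. Ak1 and Itgb5 were among the genes most like C3ar1 (0.99 each), C5ar1 was most like Hmox1, Bin2 and Samsn1 (0.99 each), and Serping1 was most like Map7d2 (1.00), Ndufa4l2 and Hey2 (0.99 each). C3 and C4b were too sparse for such a comparison.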

How the data were processed

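UMI counts per gene and barcode were deposited by the authors as 1 filtered matrix per library. Per the submitters' processing notes, Cell Ranger 2.0.1, STAR, Seurat 2.1.0 and the builds GRCm38.p5 and mm10 were involved, without stated roles; the choice of barcodes is not stated there. Members, gene lists, markers, naming rule and the genes named in the text were chosen with earlier results of these data known. The text names all 9 genes, other complement genes at 20 CPM in microglia-like cells or 50 CPM in another class, the 3 most alike genes and the 3 neighbours of Cfp on each side. A few genes that this rule names are not reported here.

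Barcodes with fewer than 300 genes or more than 10% of UMIs from mitochondrial genes were removed, 8 in the knock-out-labelled library and 0 in the wild-type-labelled library. Cells were clustered together (scanpy 1.11.5, leidenalg 0.10.2; 2000 variable genes, 30 components, 15 neighbours, resolution 0.5, no batch correction) and named from 20 marker lists, at least 3 markers per name. No doublet caller was used for the reported values. Counts were summed per class and library and scaled to CPM; genes entered at 20 CPM in 1 library. CPM carry exact Poisson, shares Clopper-Pearson and ratios conditional binomial intervals at 95%; a count of 0 was limited at 3 counts. Calculations were tested on simulated data. Alternatives changed scaling, depth, filters, doublets, clustering, class, minimum, fold and background.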

Additional observations from a re-analysis of the deposited data

Results flagged for a closer look

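For 2 of the 9 genes, counting those that reached 20 CPM in both classes, the log2 ratio of the knock-out-labelled library over the wild-type-labelled library lay on opposite sides of 0 in the microglia-like and endothelial-like cells. C1qc had 0.16 in microglia-like cells and -1.11 in endothelial-like cells. C3ar1 had 0.30 in microglia-like cells and -1.35 in endothelial-like cells. With 1 library per group the difference between the classes was not tested.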

How the results depend on the processing

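The Cfp log2 ratio in microglia-like cells lay above 0 in each of the 13 alternatives that gave a value, between 6.04 and 7.45; over all filtered cells, classes pooled, it was 6.04. With the endothelial-like level subtracted Cfp had 194 CPM left in the knock-out-labelled library and -0.10 CPM in the wild-type-labelled library, so no ratio could be given. The number of genes past 2-fold was 0 with that subtraction, where Cfp had no ratio to count. It was 2 at a minimum of 5 CPM and 2 past 1.5-fold. In the knock-out-labelled library 27.0% of microglia-like cells thinned to 1500 UMIs had a Cfp UMI. The share was 19.6% when thinned to 1000 UMIs and 30.2% with each library clustered on its own. Unthinned it was 55.1%, and 24.7% at 2 UMIs or more. Over all filtered cells, classes pooled, the thinned share was 17.8%. In microglia-like cells of the wild-type-labelled library the share was 1.19% unthinned and 0% at 2 UMIs or more. The Serping1 ratio turned to 0.087 over all filtered cells, which include the pericyte or smooth muscle-like cells. The C1qa ratio ranged from -0.31 over all filtered cells to 0.64 with the endothelial-like level subtracted. No paired analysis was possible because each group had 1 library. Depth limits C3 and C4b, at 10 UMIs or fewer per library in microglia-like cells.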
